A study of Homo sapiens with 12 samples.

Results

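The 10 genes described here are *CDH1*, *CDH2*, *VIM*, *ZEB1*, *ZEB2*, *SNAI1*, *SNAI2*, *TWIST1*, *ESRP1* and *FN1*, the standard markers and regulators of epithelial-mesenchymal transition (EMT). They were chosen by name, as the rows of the count table whose Ensembl identifier carries these symbols in GENCODE v44, and they are 10 of the 58302 identifiers in the table. Of the 10, 8 passed the filter on low counts, and *TWIST1* and *ESRP1* did not. RNA was measured in 12 libraries of MIB1-iKO cells, which are NCIH838 lung cancer cells carrying a *MIB1* guide RNA and a Cas9 that doxycycline (Dox) switches on, and which were grown from single-cell clones. *MIB1* encodes an E3 ubiquitin ligase. There were 4 groups of 3 replicates. By the labels, all cells were first held for 3 days in LDN, which blocks the BMP receptor kinases, at 50 nmol/L, either without Dox (MIB1 WT) or with 0.5 μg/mL Dox (MIB1 KO). The Results of the study likewise describe control cells kept in LDN over these 3 days, while its overview drawing shows this LDN only for the cells with Dox. Its Methods name DMSO or LDN for this period, with or without Dox. If WT cells had not received LDN in these 3 days, every difference between KO and WT would include that LDN. All cells, WT and KO, then received 10 ng/mL BMP4 for 24 hours, together with 50 nmol/L LDN (BMP-off) or with DMSO in place of LDN (BMP-on). A BMP response below is therefore the difference between BMP4 without and BMP4 with the inhibitor, and no group lacked BMP4. Dox was given to every KO library and to no WT library, so effects of Dox, of Cas9 cutting and of MIB1 loss cannot be told apart.

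EMT is the change by which epithelial cells lose their junctions and polarity and take on the shape and motility of mesenchymal cells. The transcription factors of the SNAI, ZEB and TWIST families drive it by repressing epithelial genes such as *CDH1*, while the epithelial state is held by the splicing factors *ESRP1* and *ESRP2*, by grainyhead-like factors and by the miR-200 microRNAs, which repress *ZEB1* and *ZEB2*. TGF-β is the best-known inducer of EMT. BMPs act through other SMAD proteins and have been linked both to the epithelial and to the mesenchymal state, depending on the tissue.

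The miR-200 family stands at the center of this circuit, and the 2 mature miRNAs hosted by *MIR200CHG* are shown because their seeds recognize the messages of *ZEB1* and *ZEB2*, which these cells express. They are taken from RefSeq on GRCh38.p14, lie on the plus strand of chromosome 12, and are written 5′ to 3′ with the seed, bases 2 to 8, in capitals.
hsa-miR-200c-3p, chr12:6963742-6963764: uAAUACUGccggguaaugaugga
hsa-miR-141-3p, chr12:6964155-6964176: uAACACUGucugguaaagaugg
The 2 seeds differ at 1 of 7 bases. The miRNAs themselves were not measured in these libraries. Their host transcript *MIR200CHG* had 1 count in a single library and 0 in the others. *GRHL2*, the grainyhead-like factor that holds *CDH1* expression, had 0 counts in every library.

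Total counts ranged from 19124010 to 29498000 per library, and 17188 genes were tested. *MIB1* was lower in all 6 KO than in all 6 WT libraries, at 31.0 to 34.4 against 144 to 176 CPM (counts scaled to library size, with TMM factors). As a check of the treatment, 7 of 7 known BMP targets rose with BMP-on in WT and in KO cells, at an adjusted p of at most 0.05 by edgeR. Of all tested genes, 3.92% in WT cells and 22% in KO cells reached this adjusted p, in either direction. In some libraries counts were shifted according to transcript GC content, most in WT BMP-off replicate 1 (Spearman's rho of -0.43 across genes) and in KO BMP-off replicates 2 and 3 (-0.60 and 0.59). Values without these 3 libraries are given for some of the results below, not for all. Nothing in the labels says whether replicates came from separate cultures, so p-values measure only the spread between these samples, which may be technical.

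Per transcript length, *VIM*, *SNAI1*, *ZEB1*, *FN1* and *ZEB2* stood above the epithelial *CDH1* in every library, whereas *SNAI2*, *CDH2* and *TWIST1*, also of the mesenchymal side, stood below it. The order of the genes by mean RPKM (reads scaled to gene length and library size, in the deposited values) over the 12 libraries was *VIM* at 413, *SNAI1* at 12.7, *ZEB1* at 12.5, *FN1* at 7.96, *ZEB2* at 4.31, *CDH1* at 1.61, *SNAI2* at 0.418, *CDH2* at 0.223, *ESRP1* at 0.00903 and *TWIST1* at 0. Across libraries the RPKM of *VIM* ranged from 375 to 449, that of *SNAI1* from 6.99 to 20.1, that of *ZEB1* from 11.9 to 14.4, that of *FN1* from 5.99 to 10.8, and that of *ZEB2* from 3.79 to 4.73. The corresponding ranges were 1.13 to 1.95 for *CDH1*, 0.0709 to 0.676 for *SNAI2* and 0.107 to 0.375 for *CDH2*. *SNAI1* and *ZEB1* were not separated in this order, since their ranges overlapped. *FN1* lay below *ZEB1* in every library. The ranges of *FN1* and *SNAI1* overlapped, but within each library *FN1* lay below *SNAI1*. The ranges of *SNAI2* and *CDH2* overlapped as well. *VIM*, *ZEB2* and *CDH1* stood apart from their neighbours in every library. The RPKM of *VIM* was 192 to 357 times that of *CDH1*, with a median of 265. In bulk RNA, fewer cells with a transcript and less transcript in each cell cannot be told apart.

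**Figure D1:**
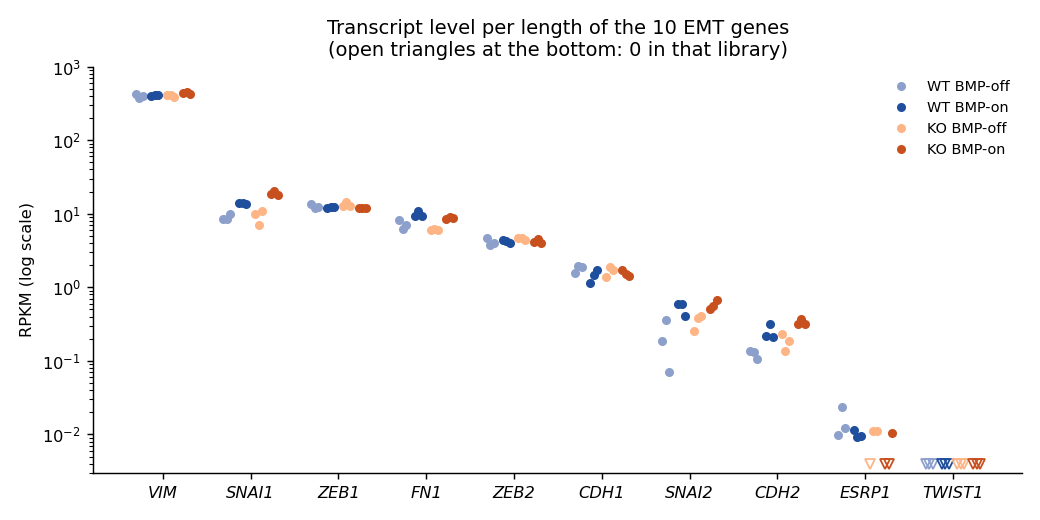
Level per transcript length (RPKM, log scale) of the 10 EMT genes in each of the 12 libraries, with colors for the 4 groups and open triangles for libraries at 0. *VIM* lies near 413, *SNAI1* and *ZEB1* near 12.7 and 12.5, *CDH1* near 1.61, and *TWIST1* is at 0 in all libraries.

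The cells were checked against markers of the tissue and of other cell types. Of the 4 epithelial markers, *KRT8* (92.7 to 192 CPM), *KRT18* (139 to 166 CPM) and *EPCAM* (4.93 to 9.83 CPM) were present in every library, whereas *KRT19* had between 0 and 2 counts. These 4 summed to 254 to 300 CPM in the BMP-off libraries and to 304 to 363 CPM in the BMP-on libraries. With BMP-on in KO cells, *KRT8* rose by 0.61 on the log2 scale (adjusted p = 0.00413 by edgeR) and *EPCAM* fell by 0.61 (adjusted p = 0.00152). This call of *EPCAM* was made in 25 of 26 other fits. In WT cells *EPCAM* fell by 0.56 (adjusted p = 0.00794), while *KRT8* did not pass, and *KRT18* passed in neither. Of the 5 lung lineage markers, *NKX2-1* and *SCGB1A1* had at most 1 count and *SFTPB* and *SFTPC* at most 2, and *NAPSA* had between 6 and 27. Of the 5 leukocyte markers, *PTPRC* and *MS4A1* had 0 counts in all libraries, *CD68* had at most 1, *CD3E* had 1 to 9, and *CD14* was present in every library with 73 to 140 counts (3.01 to 4.88 CPM). The 5 endothelial markers summed to 0.583 to 1.85 CPM. The 7 fibroblast markers summed to 46.0 to 62.5 CPM in the BMP-off libraries and to 69.1 to 81.0 CPM in the BMP-on libraries. The epithelial and the fibroblast sums thus both moved with the treatment. Of the 4 fibroblast markers that were tested, 2 rose with BMP-on in KO cells, where 22% of all genes passed. *COL1A1* rose by 1.39 on the log2 scale (adjusted p = 0.000602 by edgeR) and *PDGFRB*, with 15 to 42 counts per library, by 0.92 (adjusted p = 0.0141). The call of *PDGFRB* was made in 22 of 26 other fits. Without *COL1A1* the 6 others summed to 35.0 to 42.9 CPM over all groups, of which *THY1* made up 33.3 to 40.3 CPM, and *DCN* and *COL3A1* were at most at 3 and 8 counts. The part of cells with these markers in the results below was not tested.

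Of the 8 tested genes, 3 passed the test in the BMP response of WT cells, all of them higher with BMP-on. They were the repressors *SNAI1* and *SNAI2* and the matrix glycoprotein *FN1*. The test was edgeR's quasi-likelihood test with Benjamini-Hochberg adjustment over all 17188 genes, and a gene passed where its adjusted p did not exceed 0.05. Of all tested genes 3.92% passed in this comparison. In KO cells 4 of 8 rose with BMP-on, namely *SNAI1*, *FN1*, *CDH2* and *VIM*, where 22% of all genes passed. When a log2 fold change of 1 or more in size was required too, 1 gene passed in each, *SNAI2* in WT cells (0.425% of all genes) and *SNAI1* in KO cells (1.66%). None fell in either comparison. *CDH1*, *ZEB1* and *ZEB2* passed in none.

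None of the 8 passed when KO was compared with WT, nor in the interaction, which tests whether the BMP responses of KO and WT cells differ. With BMP-on, 2 of 8 had an unadjusted p under 0.05 (*SNAI1* and *VIM*), with BMP-off 1 (*FN1*), and in the interaction 1 (*SNAI1*). Over all genes, 3.67% passed between KO and WT with BMP-on, while the shares were 0.0407% with BMP-off and 0.0931% in the interaction. With the added requirement on the fold change these shares were 0.14%, 0.0116% and 0%. *SNAI1* in KO against WT with BMP-on lay at the threshold, with an adjusted p of 0.0518 by edgeR, and it passed in 13 of 26 other fits, among them DESeq2 and limma-voom. The comparisons share libraries, so their values are given side by side below and are not independent of each other.

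**Figure D2:**
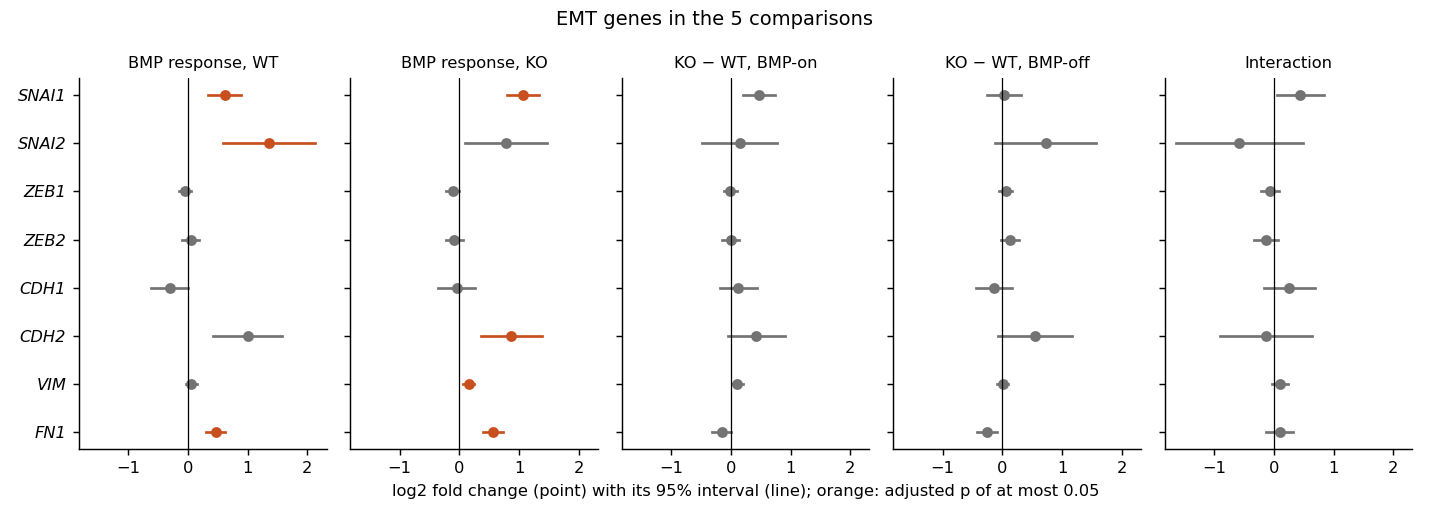
Log2 fold change (point) with its 95% interval (line) of the 8 tested EMT genes in the BMP response of WT and of KO cells, in KO minus WT under BMP-on and under BMP-off, and in the interaction, with genes that passed by edgeR in orange. In WT cells 3 genes are orange, where 3.92% of all genes passed, in KO cells 4, where 22% did, and none in the other panels.

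*SNAI1* (Snail, ENSG00000124216, GRCh38 chromosome 20 from 49982980 to 49988886, plus strand) encodes a zinc finger repressor that binds E-box elements in the *CDH1* promoter. In WT cells it stood at 13.7, 13.8 and 16.2 CPM with BMP-off and at 22.7, 22.5 and 21.8 CPM with BMP-on. In KO cells it stood at 15.9, 10.9 and 17.5 CPM with BMP-off and at 30.6, 32.9 and 29.5 CPM with BMP-on. All BMP-on libraries were above all BMP-off libraries, and the 3 KO BMP-on libraries were above the 3 WT BMP-on libraries, while the BMP-off groups overlapped. The group means were 14.6 ± 1.43, 22.4 ± 0.473, 14.8 ± 3.44 and 31.0 ± 1.70 CPM (SD, n = 3 each) for WT BMP-off, WT BMP-on, KO BMP-off and KO BMP-on. The log2 fold change with BMP-on was 0.62 (SE 0.13, adjusted p = 0.0129 by edgeR) in WT cells and 1.07 (SE 0.13, adjusted p = 4.07e-05) in KO cells, which are 1.54-fold and 2.09-fold. Between KO and WT it was 0.47 (SE 0.12, adjusted p = 0.0518) with BMP-on and 0.02 (SE 0.13, adjusted p = 0.960) with BMP-off. The 2 responses differed by 0.45 (SE 0.18, 95% interval 0.06 to 0.83), which did not pass the test (adjusted p = 0.403, unadjusted p = 0.0273 by edgeR). Without KO BMP-off replicate 2 this difference was 0.27. Without the 3 libraries with the strongest GC trends, the difference between KO and WT with BMP-on was 0.47 with an adjusted p of 2.8e-05, although these libraries are not in the 2 groups compared. That fit tested 18045 genes and called 1274 of them in this comparison, against 630 of 17188. The pseudogene *SNAI1P1* had 1 count in all libraries together.

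There were 3 genes named for a pattern over the 4 groups closest to that of *SNAI1*, measured as the distance between their group means on the log2 CPM scale after centering (12 libraries). *EMILIN3*, an extracellular matrix glycoprotein gene, lay at a distance of 0.0297, *SPHK1*, which makes sphingosine 1-phosphate, at 0.0476, and *ARRDC2*, an arrestin domain gene, at 0.0489. *SPHK1* stood at 22.0 ± 3.17, 35.1 ± 3.15, 22.2 ± 4.55 and 47.5 ± 4.80 CPM (SD, n = 3 each) in WT BMP-off, WT BMP-on, KO BMP-off and KO BMP-on. *EMILIN3* was near 1 CPM, with group means from 0.751 to 1.64.

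*SNAI2* (Slug, ENSG00000019549, chromosome 8 from 48917598 to 48921740, minus strand) encodes a second repressor of the same family. Its level was far lower, with between 3 and 34 counts per library. In WT cells it stood at 0.359, 0.696 and 0.136 CPM with BMP-off and at 1.14, 1.16 and 0.790 CPM with BMP-on, and in KO cells at 0.488, 0.723 and 0.799 CPM with BMP-off and at 0.996, 1.10 and 1.32 CPM with BMP-on. The BMP-on libraries were above the BMP-off libraries in both cell states, and KO and WT overlapped in each. The log2 fold change was 1.36 (SE 0.37, adjusted p = 0.0483 by edgeR) in WT cells and 0.78 (SE 0.32, adjusted p = 0.0956) in KO cells, and the 2 responses differed by -0.58 (95% interval -1.63 to 0.48). The WT call rests on few counts, as it was lost in 13 of 24 other fits, with an adjusted p of up to 0.169. WT BMP-off replicate 3, with 3 counts, was the lowest library, and without it the change in WT cells was 0.99 with an adjusted p of 0.162.

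*ZEB1* (ENSG00000148516, chromosome 10 from 31318495 to 31529814, plus strand) and *ZEB2* (ENSG00000169554, chromosome 2 from 144364364 to 144521057, minus strand) encode zinc finger homeobox repressors. *ZEB1* lay between 74.3 and 85.6 CPM over the 12 libraries. With BMP-off it stood at 81.8, 75.2 and 77.1 CPM in WT cells and at 78.4, 85.6 and 79.5 CPM in KO cells, and with BMP-on at 74.3, 76.3 and 76.2 CPM in WT cells and at 75.0, 74.5 and 75.9 CPM in KO cells. In KO cells the 3 BMP-on libraries lay below the 3 BMP-off libraries, a log2 difference of -0.11 (SE 0.050, 95% interval -0.22 to -0.01) that did not pass the test (adjusted p = 0.122 by edgeR). In WT cells the difference was -0.05 (95% interval -0.15 to 0.06). *ZEB2* ranged from 48.8 to 59.4 CPM, its groups overlapped in every comparison, and its BMP response was 0.05 (95% interval -0.10 to 0.19) in WT cells and -0.08 (95% interval -0.23 to 0.06) in KO cells. Counts of the antisense gene *ZEB1-AS1* equalled 6.94% of those of *ZEB1*, and whether strand was used in the counting is not given in the sources used here. The pseudogene *ZEB2P1* had between 3 and 14 counts per library, against at least 1111 for *ZEB2*.

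*TWIST1* (ENSG00000122691, chromosome 7 from 19020991 to 19117636, minus strand), a basic helix-loop-helix factor, had 0 counts in all 12 libraries. The upper limit that a count of 0 allows, taken as 3 counts per library, is 0.103 to 0.157 CPM, provided that its reads were counted. Whether the counting could have lost this gene was not tested. Its paralog *TWIST2* was expressed, at a mean of 5.17 RPKM with 134 to 303 counts per library, and passed in no comparison. *ESRP1* (ENSG00000104413, chromosome 8 from 94641074 to 94707466, plus strand), which promotes epithelial splice forms, had 10 counts in all libraries together, with at most 2 in any library and 0 in 3. At this depth no difference in either gene between groups was detectable. *ESRP2*, which has the same role, was low as well, at a mean of 0.172 RPKM and 8 to 22 counts, and passed in no comparison.

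*CDH1* (E-cadherin, ENSG00000039068, chromosome 16 from 68737292 to 68835537, plus strand) holds epithelial cells together at adherens junctions. In WT cells it stood at 7.40, 9.35 and 8.96 CPM with BMP-off and at 5.44, 7.01 and 8.19 CPM with BMP-on. In KO cells it stood at 6.59, 8.64 and 8.12 CPM with BMP-off and at 8.24, 7.36 and 6.99 CPM with BMP-on. The groups overlapped in all comparisons. The BMP response was -0.30 on the log2 scale (SE 0.14, 95% interval -0.61 to 0.00, adjusted p = 0.330 by edgeR) in WT cells and -0.04 (SE 0.15, 95% interval -0.35 to 0.27, adjusted p = 0.872) in KO cells. A 2.09-fold change, as *SNAI1* had in KO cells, lies outside both intervals. The pseudogene *FTLP14*, on the same strand inside *CDH1*, had counts equal to 3.80% of those of *CDH1*.

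*CDH2* (N-cadherin, ENSG00000170558, chromosome 18 from 27932879 to 28177946, minus strand), the cadherin of mesenchymal and neural cells, was near 1 CPM with 10 to 40 counts per library. In WT cells it stood at 0.575, 0.565 and 0.455 CPM with BMP-off and at 0.928, 1.37 and 0.898 CPM with BMP-on. In KO cells it stood at 0.977, 0.562 and 0.799 CPM with BMP-off and at 1.38, 1.62 and 1.36 CPM with BMP-on. BMP-on and BMP-off libraries did not overlap in either state. The log2 fold change was 1.00 (SE 0.27, adjusted p = 0.0515 by edgeR) in WT cells and 0.87 (SE 0.24, adjusted p = 0.0170) in KO cells, and the 2 responses differed by -0.13 (95% interval -0.90 to 0.64). The KO call was lost in 5 of 26 other fits, and without KO BMP-off replicate 2, its lowest library in that group, the change was 0.68 with an adjusted p of 0.0775. Without the 3 libraries with the strongest GC trends it was 0.56 with an adjusted p of 0.259. KO and WT overlapped in both treatments.

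*VIM* (vimentin, ENSG00000026025, chromosome 10 from 17228241 to 17237593, plus strand), the intermediate filament of mesenchymal cells, was the most abundant of the list. In WT cells it stood at 750, 675 and 712 CPM with BMP-off and at 729, 745 and 750 CPM with BMP-on, and in KO cells at 738, 717 and 688 CPM with BMP-off and at 802, 813 and 780 CPM with BMP-on. The 3 KO BMP-on libraries were the highest of the 12. *VIM* rose by a log2 fold change of 0.16 in KO cells (SE 0.044, 1.12-fold, adjusted p = 0.0151 by edgeR), a call that was lost in 7 of 26 other fits. Its response in WT cells was 0.06 (95% interval -0.03 to 0.15). With BMP-on, KO differed from WT by 0.11 (adjusted p = 0.259, unadjusted p = 0.0258 by edgeR), with no overlap of the libraries. Without the 3 libraries with the strongest GC trends, the KO response was 0.11 with an adjusted p of 0.123. Counts of the overlapping antisense gene ENSG00000234961 equalled 2.24% of those of *VIM*.

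**Figure D3:**
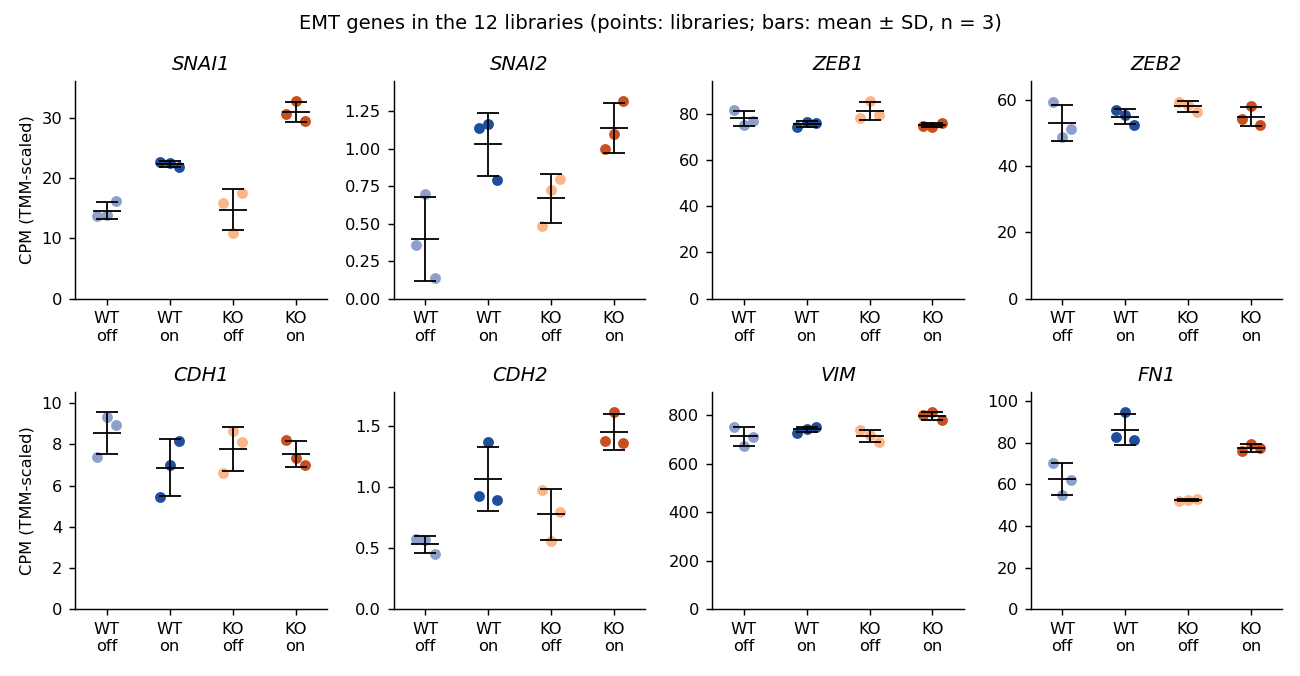
CPM of the 8 tested EMT genes in each library (points), with the mean and SD of the 3 replicates of each group (bars). Within each cell state, libraries with BMP-on lie above those with BMP-off for *SNAI1*, *SNAI2*, *CDH2* and *FN1*. The share of all genes whose libraries separate in this way was not counted. *ZEB1* and *ZEB2* stay within 74.3 to 85.6 and 48.8 to 59.4 CPM.

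*FN1* (fibronectin, ENSG00000115414, chromosome 2 from 215360440 to 215436073, minus strand) encodes a matrix glycoprotein that integrins bind. In WT cells it stood at 70.4, 54.8 and 62.1 CPM with BMP-off and at 82.4, 94.9 and 81.2 CPM with BMP-on. In KO cells it stood at 51.8, 52.5 and 53.1 CPM with BMP-off and at 75.8, 79.3 and 77.2 CPM with BMP-on. The BMP-on libraries were above the BMP-off libraries in both states, and KO libraries were below WT libraries in both treatments. The log2 fold change with BMP-on was 0.46 (SE 0.077, adjusted p = 0.00188 by edgeR) in WT cells and 0.56 (SE 0.078, adjusted p = 8.72e-05) in KO cells. Both calls held in 26 of 26 other fits. Between KO and WT the difference was -0.25 (SE 0.078, unadjusted p = 0.00538, adjusted p = 0.366 by edgeR) with BMP-off and -0.16 (SE 0.076, adjusted p = 0.394) with BMP-on, and the 2 responses differed by 0.10 (95% interval -0.14 to 0.33). Without WT BMP-off replicate 1 the BMP-off difference was -0.14, and without WT BMP-on replicate 2 the BMP-on difference was -0.08. The KO mean of *FN1* was 84.1% of the WT mean with BMP-off and 89.8% with BMP-on, while in the same libraries that of *SNAI1* was at 101% and 139%.

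The *FN1* promoter is shown because *FN1* passed in both BMP responses and is the only such gene with a promoter entry in the RefSeq windows used here (5 of the 10 genes had one or more, 12 windows in all). The 250 bases before the start site, chr2:215436069-215436318 on GRCh38.p14, are written 5′ to 3′ on the minus strand, with capitals marking a cyclic AMP response element (TGACGTCA) and GGAGCC on either strand, one form of the GC-rich element that BMP-regulated SMADs bind.
FN1: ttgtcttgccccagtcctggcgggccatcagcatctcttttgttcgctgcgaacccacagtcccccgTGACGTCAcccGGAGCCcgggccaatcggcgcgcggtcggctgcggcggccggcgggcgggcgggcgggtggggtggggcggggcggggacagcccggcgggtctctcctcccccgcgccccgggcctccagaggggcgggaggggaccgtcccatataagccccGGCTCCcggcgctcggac
The first motif begins at position -183 from the start site and is found in 1.6% of 35116 promoter windows of this length. GGAGCC lies at -172 and, on the other strand, at -18, and 30.6% of windows hold it. The other form, GGCGCC, held by 16.4% of windows, and the E-box CACCTG bound by SNAI and ZEB proteins, held by 17.5%, have no match in this window. These motifs do not overlap, and both strands were searched. A match describes these letters only.

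The members were set beside longer lists of genes of the same programme, described by counts and by the median log2 fold change. Of 39 epithelial junction, keratin and surface genes 33 were tested, and in the BMP response of KO cells 5 rose and 11 fell, that is 16 of 33 where 22% of all genes passed, with a median of -0.09 against 0.01 over all genes. The tight junction protein *OCLN* fell by 0.57 on the log2 scale (adjusted p = 4.39e-06 by edgeR), and the surface glycoprotein *CD24* rose by 0.48 (adjusted p = 9.33e-07). In WT cells 2 rose and 7 fell, where 3.92% of all genes passed. Between KO and WT with BMP-on, where 3.67% of all genes passed, 1 was higher and 4 were lower. The higher one was the tight junction gene *CLDN4*, with a log2 difference of 0.82 (adjusted p = 0.0228 by edgeR). It had 17 to 84 counts per library and passed in 19 of 26 other fits. The lower ones included *OCLN* at -0.33 (adjusted p = 0.00403) and the desmosomal cadherin *DSG2* at -0.18 (adjusted p = 0.0299), which passed in 11 of 26 other fits. *CLDN4* and *DSG2* are outside the rule for naming genes and were named after their values were seen. Without the 3 libraries with the strongest GC trends, 5 rose and 8 fell in KO cells. *CDH1*, which is counted among the members, passed in no comparison, while 16 of the 33 passed in KO cells.

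Of 46 mesenchymal genes 35 were tested, and their changes went both ways too. In KO cells 8 rose and 6 fell with BMP-on, or 14 of 35 where 22% of all genes passed, with a median of 0.07. *LOX*, which crosslinks collagen, rose by 1.32 (SE 0.13, adjusted p = 1.81e-06 by edgeR), while the matrix protein *THBS1* fell by 0.92 (SE 0.088, adjusted p = 2.62e-06) and the receptor kinase *AXL* fell by 0.48 (adjusted p = 8.02e-06). In WT cells 3 rose and 5 fell, where 3.92% of all genes passed. Between KO and WT with BMP-on 3 passed, where 3.67% of all genes did. *LOX* was higher by 0.66 (adjusted p = 0.00383), and *THBS1* and the ligand gene *WNT5A* were lower, with log2 differences of -0.51 and -0.22 (adjusted p = 0.00316 and 0.0183). The call of *WNT5A* was made in 18 of 26 other fits. Without the 3 libraries, the counts in KO cells were again 8 and 6. *VIM*, *FN1* and *CDH2*, counted among the members, rose in KO cells as did 8 of this list, while 6 fell.

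Of 15 other transcription factors known to induce EMT, 10 were tested, and 3 passed in KO cells, where 22% of all genes did. *SOX4* rose by 0.41 (adjusted p = 0.000301 by edgeR), *FOXC2* rose by 0.42 (adjusted p = 0.00151, but 0.857 after the GC correction with the replicate block) and *ETS1* fell by 0.21 (adjusted p = 0.0135). In WT cells 1 rose and none fell, *TCF4*, by 0.24 (adjusted p = 0.0390), which was named after its value was seen and passed in 12 of 26 other fits. None passed between KO and WT with BMP-on. The 3 listed changes in KO cells were all smaller in size than the 1.07 of *SNAI1*. Of 15 transcription factors and miRNA host genes of the epithelial state only 6 were tested, and 9 did not pass the filter. Of these 6, 4 passed in KO cells, where 22% of all genes did, and 2 between KO and WT with BMP-on, where 3.67% did. *KLF4*, a Krüppel-like factor, rose by 0.98 in KO cells (adjusted p = 1.95e-07) and exceeded its WT level by 0.32 under BMP-on (adjusted p = 0.0173). This last call was made in 20 of 26 other fits. *KLF5* fell by 0.35 (adjusted p = 2.39e-05) and differed from its WT level by -0.26 under BMP-on (adjusted p = 0.00229). *ELF3*, an epithelial ETS factor with 8 to 36 counts per library, fell by 1.31 (adjusted p = 0.00270). *GRHL3*, a grainyhead-like factor with 4 to 25 counts per library, rose by 1.51 (adjusted p = 0.00295). It is outside the rule for naming genes and was named after its values were seen.

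**Figure D4:**
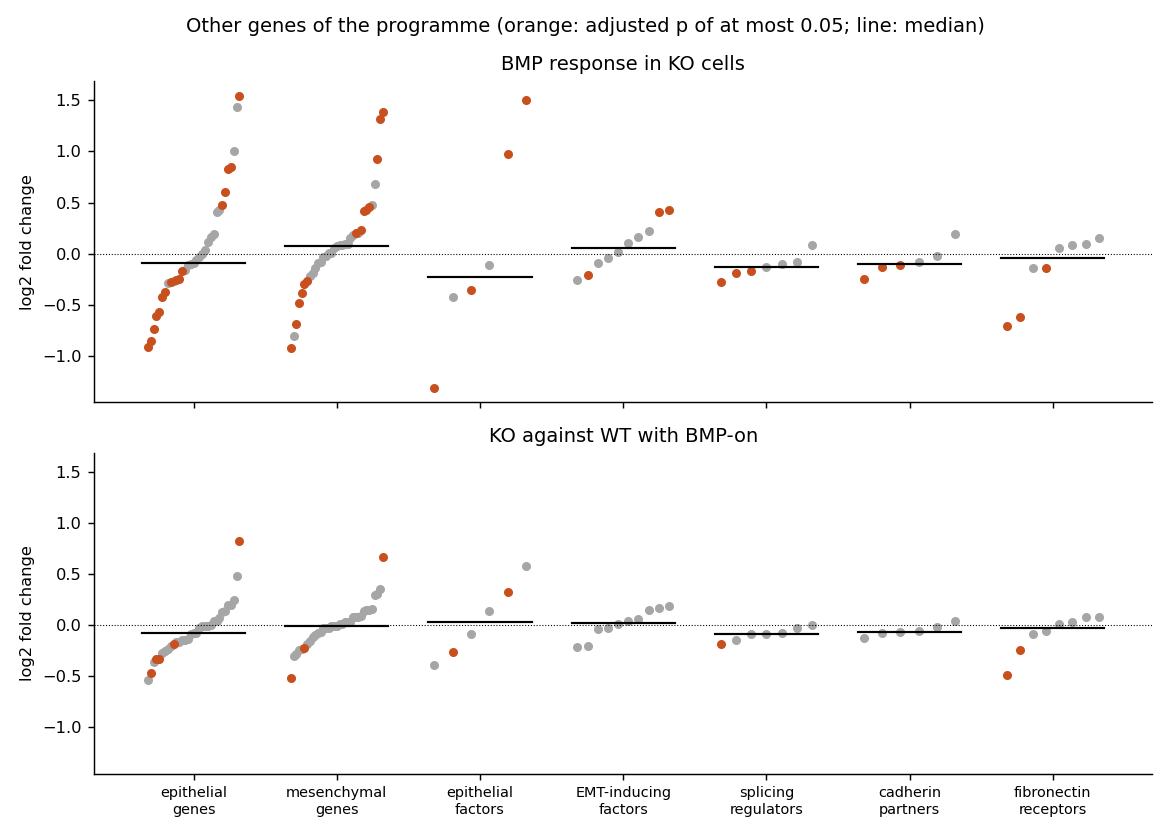
Log2 fold change of the tested genes of 7 lists, each a point, in the BMP response of KO cells (top) and in KO against WT with BMP-on (bottom), with genes that passed by edgeR in orange and the list median as a line. In KO cells, where 22% of all genes passed, 5 of 33 epithelial genes rose and 11 fell, and 8 of 35 mesenchymal genes rose and 6 fell.

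Of the 7 splicing regulators set beside *ESRP1*, 3 fell in KO cells and none rose, where 22% of all genes passed, as also for the lists that follow. *RBM47*, an RNA-binding protein of epithelial splicing, fell by 0.28 (adjusted p = 0.000477 by edgeR), *SRSF1* by 0.19 (adjusted p = 0.0139) and *QKI* by 0.17 (adjusted p = 0.0168). The calls of *SRSF1* and *QKI* were made in 22 and 19 of 26 other fits. Under BMP-on *RBM47* was also below its WT level, with a log2 difference of -0.18 (adjusted p = 0.0423), a call that was made in 12 of 26 other fits. Of the 6 cytoplasmic partners of the cadherins, 3 fell in KO cells, *AFDN* by 0.25 (adjusted p = 0.00945), *CTNND1* by 0.13 (adjusted p = 0.0423) and *CTNNA1* by 0.11 (adjusted p = 0.0499), and none passed in WT cells or between KO and WT. *CTNND1* and *CTNNA1* each passed in 10 of 26 other fits. Without the 3 libraries with the strongest GC trends, 1 of the 6 passed. Of the 10 receptors and partners of fibronectin 8 were tested, and 3 fell in KO cells, in which *FN1* rose. The proteoglycan *SDC4* fell by 0.62 (adjusted p = 1.21e-07), the crosslinking enzyme *TGM2* fell by 0.71 (adjusted p = 5.64e-05) and the integrin chain *ITGB1* fell by 0.14 (adjusted p = 0.0348), a call that was made in 12 of 26 other fits. Under BMP-on *SDC4* and *TGM2* were below their WT levels as well, with log2 differences of -0.24 (adjusted p = 0.00448) and -0.48 (adjusted p = 0.00573), and both fell in WT cells.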

How the data were processed

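Groups were taken from the sample labels, and 0 columns were unmapped. Ribosomal reads had been removed by the authors, the others aligned to GRCh38 with GSNAP (named in the submitters' processing notes too), and exonic reads counted per RefSeq gene by HTSeqGenie. The deposited count table holds raw counts per Ensembl identifier. The deposited RPKM table, which the authors normalized between libraries, served for levels between genes and for alternatives. The library kit is given as Smart-Seq or stranded TruSeq, depending on input, and the use of strand in counting is not given in the sources used here. GENCODE v44 gave symbols and positions to 57532 identifiers and none to 770.

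Tests used edgeR 4.0.16 in R 4.3.3 (TMM, filterByExpr at its defaults, robust quasi-likelihood, 1 model over 12 libraries), in 5 comparisons. The authors used limma-voom with quantile normalization and called genes from a log2 fold change of 1 in size. CPM values are TMM-scaled. Intervals are at 95%. Libraries were not paired by replicate number in the main fit. Of 18 same-numbered pairs, 2 had deviations correlated above 0.1. Pairs with different numbers were not examined, so this check cannot exclude pairing. Counts between replicates differed by 3.09 to 18.1 times the variance of counting alone.

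Alternatives were DESeq2 1.42.0, limma 3.58.1 with voom and quantile normalization, library size scaling, upper quartile scaling, a filter of 10 counts in every library, no filter, only the groups compared, a replicate block, each library left out, log2(RPKM + 1) and log2(RPKM + 0.1) (genes with a mean RPKM from 0.1, and the first also unfiltered), and a GC correction (loess of span 0.4), alone and with the block. Leaving out the 3 libraries with the strongest GC trends was chosen after seeing the data.

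The members and lists were chosen with earlier results of these data known, and the lists were compiled from general knowledge. All members were named, and of each list up to 3 genes with the lowest adjusted p among those that passed when KO cells responded to BMP and when KO was set against WT under BMP-on. *TWIST2*, *ESRP2*, *GRHL2*, *GRHL3*, *MIR200CHG*, *TCF4*, *CLDN4* and *DSG2* are outside this rule and were named after their values were seen. Some genes that the rule names are not reported here. Promoters and miRNAs came from RefSeq (GRCh38.p14).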

Additional observations from a re-analysis of the deposited data

Results flagged for a closer look

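One result was picked out because the BMP responses of KO and WT cells differed in the test of the difference itself. Among the genes of all lists used here, *BAMBI*, a pseudoreceptor in the list of BMP targets, had a response 0.96 larger in KO cells on the log2 scale (SE 0.12, adjusted p = 0.00263 by edgeR), and no EMT gene did. The study itself names *BAMBI* among the genes with a BMP response potentiated by MIB1 KO in this experiment.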

How the results depend on the processing

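Both BMP responses of *FN1* and the response of *SNAI1* in KO cells kept their direction and passed in all 26 alternatives, with ranges of 0.38 to 0.57 and 0.46 to 0.62 for *FN1* and of 0.85 to 1.19 for *SNAI1*. The response of *SNAI1* in WT cells passed in 24 of 26, and was lost without WT BMP-off replicate 2 (adjusted p = 0.0763 by edgeR) and on log2(RPKM + 1) without a filter (adjusted p = 0.0785). The number of members that passed in WT cells was 3, and fell to 1 (*FN1*) on log2(RPKM + 1) without a filter. In KO cells it was 4, and fell to 2 (*SNAI1* and *FN1*) on log2(RPKM + 1), on log2(RPKM + 0.1) and without the 3 libraries with the strongest GC trends, which leaves KO BMP-off with a single library, assumed to vary like the others. In KO against WT with BMP-on it was 0, and rose to 1 (*SNAI1*) with DESeq2, with scaling by library size or upper quartile, with no filter on low counts, with only the groups compared, with the GC correction alone or with the replicate block, and without the 3 libraries, and to 2 (*SNAI1* and *VIM*) with limma-voom. With BMP-off it rose from 0 to 1 (*FN1*) with no filter, as did the interaction (*SNAI1*, adjusted p = 0.0359). With each library left out in turn, the counts in WT cells, in KO cells and in KO against WT with BMP-on ranged from 2 to 4, 2 to 4 and 0 to 1, and those with BMP-off and in the interaction were 0. Without KO BMP-on replicate 2 the count in KO cells was 2. *SNAI1* in KO against WT with BMP-on passed without WT BMP-off replicates 1 or 3 or KO BMP-off replicates 2 or 3. *CDH2* in WT cells passed in 10 of 25 alternatives.

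The replicate block changed 1 call, *SNAI2* in WT cells (1.35, adjusted p = 0.0720 by edgeR). DESeq2 gave *SNAI2* no adjusted p in that comparison. Values that changed sign were at most 0.15 in size as reported above. *CDH1* in KO cells was 0.19 without the 3 libraries. *ZEB2* in KO against WT with BMP-on was 0.00026 with DESeq2, 0.0026 with limma-voom, 0.022 with library size, 0.0049 with upper quartile, 0.00051 with at least 10 counts, 0.019 with the GC correction and 0.018 with its block, and *ZEB1* there was 0.0046 with limma-voom, 0.015 with library size, and 0.012 with the GC correction and with its block. *VIM* in KO against WT with BMP-off was -0.024 with limma-voom, -0.013 with the GC correction and -0.012 with its block. In the interaction *CDH2* was 0.026 on log2(RPKM + 1) and 0.011 on log2(RPKM + 0.1), and *ZEB1* was 0.010 with the GC correction and with its block. With single libraries left out, sign changes came in *CDH1* in KO cells (-0.16 to 0.040), *ZEB2* in WT cells (-0.010 to 0.14), the interaction of *CDH2* (-0.32 to 0.10) and *FN1* (-0.014 to 0.18), KO against WT with BMP-off for *SNAI1* (-0.10 to 0.20) and *VIM* (-0.035 to 0.054), and with BMP-on for *CDH1* (-0.013 to 0.26), *SNAI2* (-0.019 to 0.25) and *ZEB2* (-0.045 to 0.029). The cause of these changes was not tested.

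Over all genes, the 674, 3777, 630, 7 and 16 that passed in the 5 comparisons ranged from 366 to 1544, 2314 to 5323, 326 to 1274, 2 to 319 and 3 to 809. No scaling moved the median of all genes by over 0.033. The 16 epithelial and 14 mesenchymal genes that passed in KO cells ranged from 12 to 19 and 11 to 19, the 9 and 8 in WT cells from 4 to 14 each, and the 5 and 3 in KO against WT with BMP-on from 2 to 8 and 0 to 9. In KO cells the 3 EMT-inducing factors ranged from 2 to 5, the 4 epithelial factors from 2 to 5, the 3 splicing regulators from 1 to 5, the 3 cadherin partners from 0 to 3 and the 3 fibronectin receptors from 2 to 3. Depth limits *SNAI2*, *CDH2*, *ESRP1* and *TWIST1*, whose counts were at most 40 per library.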
